A study of Mus musculus with 6 samples.

Results

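The genes described here encode the replication-dependent core histones, the H2A, H2B, H3 and H4 proteins that are made mainly in S phase to package newly copied DNA. They were taken as every row of the count table whose symbol begins with H2ac, H2bc, H3c or H4c followed by a number, a rule that reads symbols and a minimum count only. Of 43074 gene symbols in the table, 62 matched: 18 H2A, 19 H2B, 12 H3 and 13 H4 genes. Of these, 54 had 10 or more counts summed over the 6 libraries, and 37 passed the filter on low counts and were tested among 17433 genes. The 37 are therefore the better counted members and not the whole family. A member with few counts could pass the filter through the group where it was highest alone. Low-count members with a large difference were thus kept more readily than those low in all groups.

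RNA was sequenced from wild-type C2C12 cells, an established mouse myoblast line that exits the cell cycle and fuses into myotubes when serum is changed. Untreated day 0 cells were in growth medium with fetal bovine serum, and day 4 cells had spent 4 days in differentiation medium, which has horse serum, with DMSO or 1 mM 4-PBA. 4-PBA (4-phenylbutyric acid) blocks histone deacetylases and is also used to help proteins fold. Each group had 2 libraries, all carry 1 batch number, and no label states that replicates came from separate cultures, so p-values measure only the spread between these libraries. The model is 1 cell line, and day 0 differs from day 4 in medium, serum, time and vehicle together, which cannot be told apart.

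In most animal cells the mRNAs of these genes are the exception to polyadenylation. They usually lack introns and end just past a short stem-loop, which SLBP (stem-loop binding protein) holds through processing, export and translation, and they are degraded when DNA synthesis stops. Some members are also known to give spliced or extended, polyadenylated transcripts, including in differentiated cells. In mouse the genes lie mostly in a large cluster on chromosome 13, with a smaller cluster on chromosome 3.

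The stem-loop was searched for in GENCODE M21 transcripts because histone mRNAs without a poly(A) tail usually end just past it. Of the 62 rows, 57 matched a gene there, and 37 of these had a stem-loop of 16 bases in an annotated transcript. The search took only perfectly paired sites that start with GG and have a loop starting with TTT. The other 20 are not shown to lack the element. Some of their annotated transcripts are short, such as 312 bases for H4c12 and 381 for H2bc13, and may stop before it. The form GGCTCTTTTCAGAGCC occurred in 21 genes, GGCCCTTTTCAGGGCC in 6 and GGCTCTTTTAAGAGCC in 5. The lines below show the site, in capitals and as DNA letters, with up to 5 flanking bases, for members that the results turn on: the most counted H2A gene, the strongest H3 rise, and falling H2B and H4 genes.
H2ac24: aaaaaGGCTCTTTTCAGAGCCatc
H3c15: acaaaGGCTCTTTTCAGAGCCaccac
H2bc12: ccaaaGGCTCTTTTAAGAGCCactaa
H4c2: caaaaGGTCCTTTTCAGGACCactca
H4c9: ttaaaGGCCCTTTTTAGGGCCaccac
No stem-loop was found in the annotated transcripts of H2bc4 and H2bc21, the most counted H2B genes over all libraries. The H2bc4 transcript is spliced from 2 exons, and the H2bc21 transcript has 1 exon and 2620 bases.

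Promoter letters were also compared, since divergent H2A and H2B genes share the sequence between them. In the 250 bases before the start (RefSeq, GRCm38.p6, both strands searched), CCAAT occurred in 81.1% of 53 windows of 52 members, against 33.8% of all 32851 windows. TATAAA occurred in 45.3% against 12.4%. The octamer ATTTGCAT, known from H2B promoters, occurred in 24.5% against 1.60%: in 6 of 17 H2A and 7 of 15 H2B windows, and in 0 of 10 H3 and 0 of 11 H4 windows. The windows of the 9 divergent H2A and H2B pairs found among these 52 members overlap, so a site can be counted in both genes. The octamers of H2ac1 and H2bc1, of H2ac8 and H2bc8, and of H2ac12 and H2bc12 are each the same site. In the windows printed here no motifs overlap, and a match is a description, not a bound site. Capitals below mark the 3 motifs on either strand in a shared H2A and H2B window that holds all 3 and in the windows of a falling and a rising H2A gene.
H2bc8, chr13:23571150-23571399, plus strand: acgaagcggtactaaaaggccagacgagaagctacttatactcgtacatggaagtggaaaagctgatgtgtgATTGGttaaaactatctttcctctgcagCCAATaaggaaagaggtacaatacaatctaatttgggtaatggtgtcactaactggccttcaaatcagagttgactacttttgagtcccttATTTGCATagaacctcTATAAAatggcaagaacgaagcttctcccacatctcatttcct
H2ac24, chr13:21833476-21833725, minus strand: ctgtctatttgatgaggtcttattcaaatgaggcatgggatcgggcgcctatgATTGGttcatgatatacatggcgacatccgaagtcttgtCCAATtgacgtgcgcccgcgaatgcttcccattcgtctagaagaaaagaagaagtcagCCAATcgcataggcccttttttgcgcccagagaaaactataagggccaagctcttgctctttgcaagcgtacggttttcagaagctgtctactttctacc
H2ac18, chr3:96245247-96245496, plus strand: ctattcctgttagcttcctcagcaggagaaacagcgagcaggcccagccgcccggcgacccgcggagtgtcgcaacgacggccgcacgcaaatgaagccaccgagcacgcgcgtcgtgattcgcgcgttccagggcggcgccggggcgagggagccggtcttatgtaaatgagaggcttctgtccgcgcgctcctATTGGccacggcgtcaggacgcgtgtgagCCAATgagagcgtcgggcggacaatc
The H2ac24 and H2ac18 windows hold CCAAT and neither of the other motifs.

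Histone counts were few against the depth of the libraries. Totals ran from 47908926 to 74697397 counts per library, of which the 62 rows took 1813 to 2908, or 35.4 to 44.1 CPM (counts per 1000000 counts) before further scaling. Among member counts from 1 to 60, 78.9% of 275 were even numbers, against 57% of 66465 for all other symbols, and whether both mates of a read pair were counted is not given in the sources used here. Whether poly(A) RNA was selected is also not stated. Of 12 RNAs known to lack poly(A) tails, Rmrp and Terc were in the table only as suffixed symbols, all with 0 counts. The other 10 were in it under their own symbols, and 2 were tested. Their summed level was 0.698 and 1.38 CPM at day 0 (from here on CPM is after TMM scaling), 5.18 and 6.09 CPM after DMSO and 6.44 and 4.73 CPM after 4-PBA. Nearly all of the change was in Rn7sk, the 7SK RNA that holds back transcription elongation. The other 9 summed to between 0.143 and 0.391 CPM in the 6 libraries, and their part in the histone results was not tested. All 5 muscle markers were detected in every library, and their sum was 1032 to 1042 CPM at day 0 and 2566 to 2746 CPM at day 4. Most of that sum was Des, the muscle filament desmin, and with DMSO 4 of the 5 rose and Myf5, a factor of undifferentiated myoblasts, fell (50.4 and 50 CPM at day 0, 23.1 and 22.6 CPM after DMSO). The 9 markers of other cells summed to 129 to 174 CPM, of which Tubb3 (neuronal tubulin) was 125 to 171 CPM; Ptprc, Epcam and Adipoq stayed at or below 0.113 CPM in each library.

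The first question was how the histone genes differed after 4 days of differentiation with DMSO. Most of the tested members that changed were lower, but the gene with the most counts, H2bc4, was higher. A gene is said to have risen or fallen, or to be called, where edgeR's quasi-likelihood test gave a Benjamini-Hochberg adjusted p below 0.05 over all 17433 genes. Of 37 members, 6 rose and 16 fell with DMSO, beside 33.8% of all tested genes called higher and 32.6% called lower. The median log2 fold change of the 37 was -0.54, with 13 above and 24 below 0, against 0.023 over all tested genes. In all 22 called members the day 0 and DMSO libraries did not overlap. The share without overlap among all called genes was not counted, so this describes the calls and adds no support. With DESeq2's Wald test, 5 rose and 10 fell. Of the 22 calls, 10 held whichever library was left out: the rises of H2bc4, H2ac25, H3c15 and H2ac18 and the falls of H2ac24, H2ac8, H2ac11, H4c2, H4c4 and H2bc27. In bulk RNA, fewer cells making a transcript and less of it per cell cannot be told apart.

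With 4-PBA, 7 members rose and 15 fell against day 0, beside 33.2% and 32.4% of all tested genes. The median log2 fold change was -0.37, against 0.018 over all tested genes. The call was made with DMSO and with 4-PBA in 19 members, 5 higher in both and 14 lower in both, but these comparisons share the day 0 libraries. H2bc1, H4c6 and H4c9 were called with DMSO only, and H2ac7, H2bc22 and H4c14 with 4-PBA only; whether those differ between the treatments is the direct test given further on. This count was less stable than that with DMSO. It was 14 without day 0 replicate 1, 13 without 4-PBA replicate 1, 11 without 4-PBA replicate 2, and 9 (5 higher, 4 lower) with DESeq2's Wald test. These counts are over every member that passed the low-count filter in that fit, and of the 22 calls themselves 11 to 20 held. The 7 calls that held whichever library was left out were the rises of H2bc4, H2ac25, H3c15 and H2ac19 and the falls of H2ac24, H2bc6 and H4c2.

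**Figure D1:**
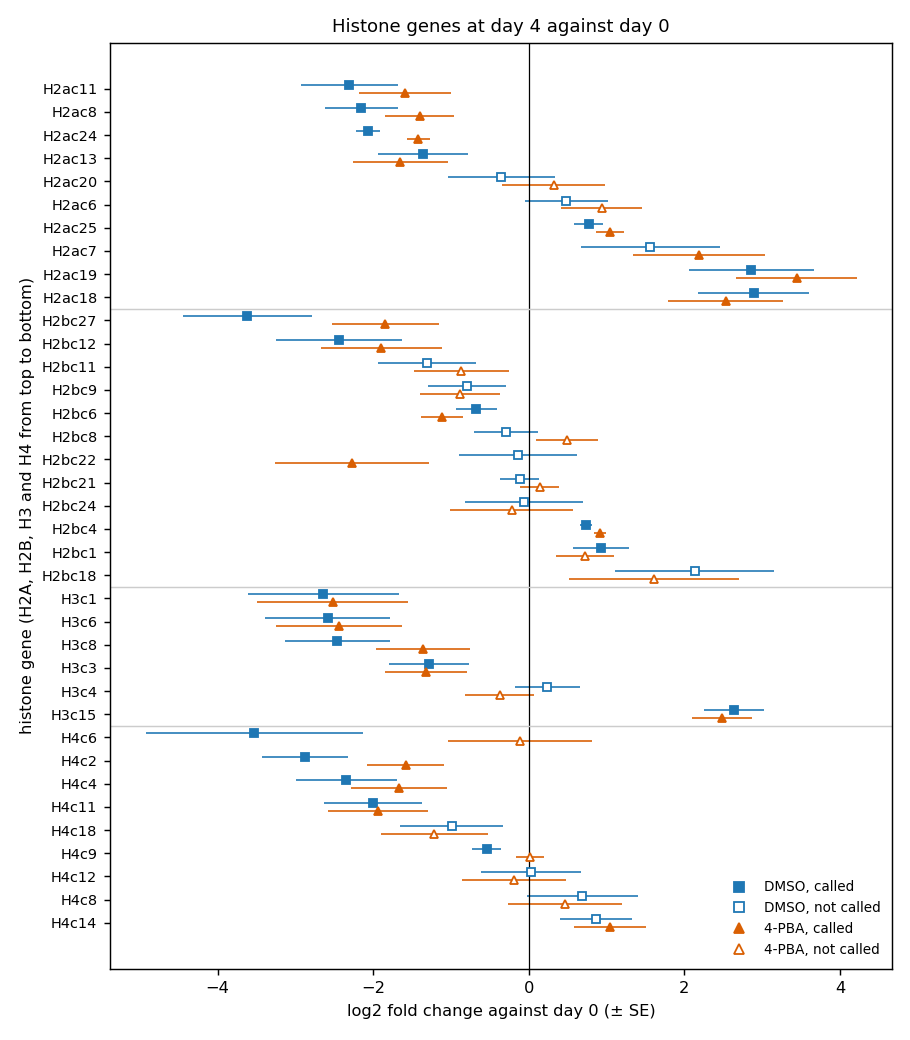
Log2 fold change against day 0 (x axis, ± SE) of the 37 tested histone genes (y axis, by class), with DMSO as squares and 4-PBA as triangles; filled points are called. Filled points lie on both sides of 0 in H2A, H2B and H3, and in H4 the DMSO points that are filled are all below 0.

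H2A genes moved in both directions. Of 10 tested, 3 rose and 4 fell with DMSO, and 4 rose and 4 fell with 4-PBA. The shares of all tested genes were 33.8% called higher and 32.6% lower with DMSO, and 33.2% and 32.4% with 4-PBA. These shares also stand beside the counts of the other classes below. H2ac24, which encodes a canonical H2A, measured 7.12 and 7.32 CPM at day 0, 1.77 and 1.67 CPM after DMSO and 2.71 and 2.69 CPM after 4-PBA. The 3 groups did not overlap, and day 0 was highest. It fell by 2.07 on the log2 scale with DMSO (SE 0.155, adjusted p = 3.95e-14, edgeR) and by 1.42 with 4-PBA (SE 0.148, adjusted p = 1.77e-10). Of its transcript's 50-base stretches, 93.1% also occur in another annotated gene, so its counts depend on how shared reads were assigned, and Gm44466 overlaps it on the other strand.

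H2ac25 moved the other way. It measured 1.63 and 2.31 CPM at day 0, 3.44 and 3.37 CPM after DMSO and 4.49 and 3.72 CPM after 4-PBA. Both day 4 groups lay above day 0, and its log2 fold change was 0.77 with DMSO (SE 0.182, adjusted p = 3.59e-04, edgeR) and 1.04 with 4-PBA (SE 0.18, adjusted p = 4.94e-06). As shares of the H2A counts, with no length applied since none was matched for H2ac25, H2ac24 took 59.9% and 60.1% of H2A counts at day 0 and 23.5% to 29.8% at day 4. H2ac25 took 13.7% and 18.9% at day 0 and 39.9% to 49.5% at day 4.

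H2ac8, another canonical H2A gene, was at 0.885 and 0.826 CPM at day 0, 0.222 and 0.162 CPM after DMSO and 0.193 and 0.451 CPM after 4-PBA. Day 0 was above every day 4 library. It fell by 2.15 on the log2 scale with DMSO (SE 0.472, adjusted p = 1.41e-04, edgeR) and by 1.40 with 4-PBA (SE 0.445, adjusted p = 0.00617). Without 4-PBA replicate 1 the second value was -0.91, and adjusted p = 0.112 by edgeR. Its start lies 179 bases from that of H2bc8 on the other strand, within the H2bc8 window printed above, and Gm44394 overlaps H2ac8 on the other strand. H2bc8 measured 0.288 and 0.769 CPM at day 0, 0.380 and 0.512 CPM after DMSO and 0.805 and 0.741 CPM after 4-PBA, with a log2 fold change of -0.29 with DMSO (SE 0.412, adjusted p = 0.555, edgeR). Such divergent pairs were searched for in RefSeq among members with a promoter window only, and 9 were found. H2bc4 and H2bc21 have no window here, so pairs that include them could not be found. The other pair found with both genes tested was H2ac11 and H2bc11. H2ac11 fell by 2.31 with DMSO on the log2 scale (SE 0.623, adjusted p = 0.00147, edgeR), and H2bc11 was at -1.31 (SE 0.63, adjusted p = 0.0661). The difference between the genes of a pair was not tested.

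The near-identical genes H2ac18 and H2ac19 of chromosome 3 had few counts at day 0 and more at day 4. Both passed the low-count filter through day 4 libraries only. H2ac18 measured 0.0823 and 0.0285 CPM at day 0, 0.254 and 0.526 CPM after DMSO and 0.290 and 0.322 CPM after 4-PBA. Every day 4 library was above day 0. Its log2 fold change was 2.89 with DMSO (SE 0.714, adjusted p = 5.79e-04, edgeR) and 2.53 with 4-PBA (SE 0.739, adjusted p = 0.00309), the latter 1.87 with adjusted p = 0.0709 without day 0 replicate 2. H2ac19 had 2 and 2 counts at day 0, 10 and 26 after DMSO and 22 and 26 after 4-PBA. Because day 0 was at or under 3 counts, ratios of summed counts are given with 95% counting intervals: 7.79 (2.79 to 30.1) for DMSO and 11.5 (4.2 to 43.8) for 4-PBA. If both mates of a pair were counted, such intervals are too narrow: with counts halved and rounded up they are 1.86 to 69.2 and 2.85 to 100. The H2ac19 call with DMSO (adjusted p = 0.0022, edgeR) was lost without DMSO replicate 2 (adjusted p = 0.0831). Of the 50-base stretches of H2ac19, 100% occur elsewhere in the annotation, and for H2ac18 89.4% do, so the levels of the genes cannot be told apart with certainty. Annotated Gm genes also overlap both on the other strand, and Gm20634 overlaps H2ac18 on its own strand.

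H2ac7 was called with 4-PBA and not with DMSO. It measured 0.0823 and 0.0285 CPM at day 0, 0.238 and 0.0809 CPM after DMSO and 0.129 and 0.354 CPM after 4-PBA. The log2 fold change with 4-PBA was 2.19 (SE 0.853, adjusted p = 0.0242, edgeR), and with DMSO it was 1.56 (SE 0.893, adjusted p = 0.124). The call was lost without day 0 replicate 2 (1.53, adjusted p = 0.23, edgeR) and without 4-PBA replicate 2 (1.28, adjusted p = 0.38), and DESeq2's adjusted p was 0.105. Gm44359 overlaps it on the other strand.

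**Figure D2:**
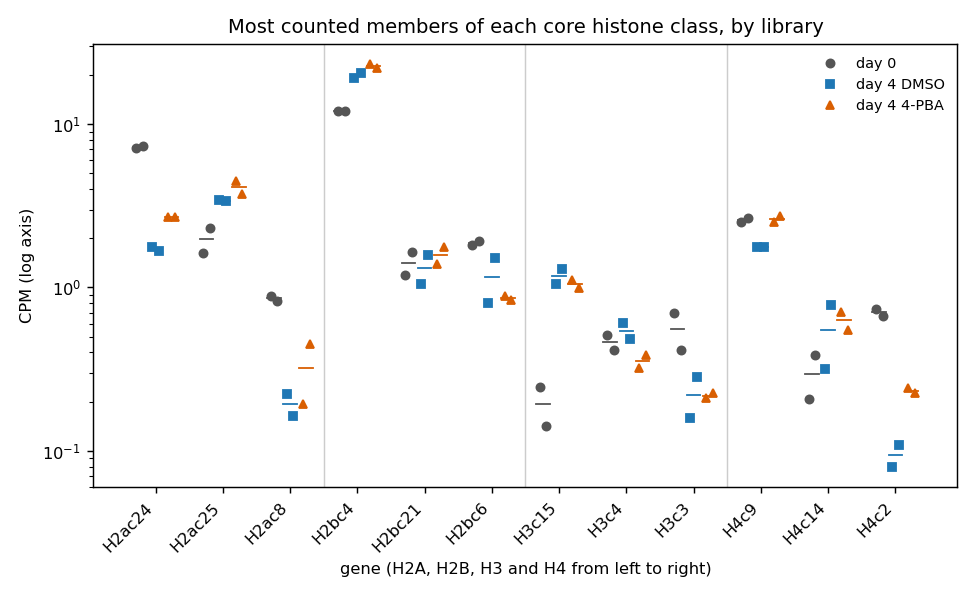
CPM on a log axis in each library for the 3 most counted members of each class (x axis, H2A to H4), with circles for day 0, squares for DMSO and triangles for 4-PBA; short lines are the means of 2 libraries. H2bc4 and H2ac25 lie higher at day 4 than at day 0, and H2ac24, H2ac8 and H4c2 lie lower.

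In the H2B class 1 gene held most of the counts. Of 12 tested, 2 rose and 3 fell with DMSO, and 1 rose and 4 fell with 4-PBA. H2bc4 measured 12 and 12.1 CPM at day 0, 19.2 and 20.7 CPM after DMSO and 23.3 and 22.0 CPM after 4-PBA. All day 4 libraries were above day 0, and the 4-PBA libraries were above the DMSO libraries. Its log2 fold change was 0.73 with DMSO (SE 0.0758, adjusted p = 1.52e-10, edgeR) and 0.91 with 4-PBA (SE 0.0756, adjusted p = 6.18e-13). It made up 30.5% and 32.2% of all member counts at day 0 and 51.4% to 53.7% at day 4. Of its 50-base stretches, 30.1% occur elsewhere.

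H2bc6 lies under transcripts of Gm11398 and of the linker histone gene Hist1h1e on the same strand, so some of its reads may belong to those. It measured 1.81 and 1.92 CPM at day 0, 0.808 and 1.51 CPM after DMSO and 0.886 and 0.837 CPM after 4-PBA. Day 0 was above all day 4 libraries, but the DMSO libraries were far apart. The fall with 4-PBA was 1.12 on the log2 scale (log2 fold change -1.12, SE 0.273, adjusted p = 5.35e-04, edgeR). With DMSO the value was -0.67 (SE 0.26, adjusted p = 0.0224). That call was lost without DMSO replicate 1 (-0.31, adjusted p = 0.383, edgeR), without day 0 replicate 2 (adjusted p = 0.108) and with DESeq2 (adjusted p = 0.108).

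H2bc21 shares none of its 50-base stretches with other genes and was not called. It measured 1.19 and 1.65 CPM at day 0, 1.05 and 1.59 CPM after DMSO and 1.40 and 1.77 CPM after 4-PBA. The groups overlapped, and the log2 fold change was -0.12 with DMSO (SE 0.254, adjusted p = 0.703, edgeR) and 0.14 with 4-PBA (SE 0.253, adjusted p = 0.651). The sign of each of these values turned when single libraries were left out. H2bc1, known as a testis H2B gene, measured 0.267 and 0.641 CPM at day 0, 0.887 and 0.917 CPM after DMSO and 0.741 and 0.821 CPM after 4-PBA. Its log2 fold change with DMSO was 0.93 (SE 0.363, adjusted p = 0.0243, edgeR), lost without day 0 replicate 1 (0.49, adjusted p = 0.279), without DMSO replicate 2 (adjusted p = 0.0713) and with DESeq2 (adjusted p = 0.101).

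Among the H2B genes with few counts, H2bc27 had 27 and 16 counts at day 0, 2 and 2 after DMSO and 8 and 5 after 4-PBA. The DMSO libraries were lowest. H2bc27 and H2bc12, described next, passed the low-count filter through their day 0 libraries only. Scaled to library size, the summed count was 12.4-fold lower with DMSO than at day 0 (95% counting interval 4.51 to 47.6, or 3.12 to 112 with counts halved; adjusted p = 2.48e-04, edgeR). With 4-PBA the log2 fold change against day 0 was -1.84 (SE 0.687, adjusted p = 0.0186, edgeR), a call lost without day 0 replicate 1 or either 4-PBA library (adjusted p up to 0.347). H2bc12 measured 0.165 and 0.313 CPM at day 0, 0.0317 and 0.0539 CPM with DMSO and 0.0644 in each 4-PBA library. It fell by 2.44 with DMSO on the log2 scale (SE 0.814, adjusted p = 0.00876, edgeR) and by 1.90 with 4-PBA (SE 0.778, adjusted p = 0.0321). These calls were lost without day 0 replicate 2 and without single day 4 libraries, with adjusted p up to 0.195 with DMSO and 0.354 with 4-PBA by edgeR. Across the 6 fits with a library left out the DMSO value ran from -2.87 to -1.87, and with DESeq2 the 4-PBA call was lost (adjusted p = 0.165).

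H2bc22 had 4 and 16 counts at day 0, 12 and 8 after DMSO and 0 and 4 after 4-PBA. Day 0 and DMSO overlapped, and with 4-PBA the log2 fold change against day 0 was -2.27 (SE 0.99, adjusted p = 0.0438, edgeR). The call held in 2 of the 6 fits that left out a library, reached -1.30 with adjusted p = 0.479 without day 0 replicate 2 and -1.30 with adjusted p = 0.352 without 4-PBA replicate 1, and was absent with DESeq2 (adjusted p = 0.165).

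H3 genes fell, apart from H3c15 and H3c4. Of 6 tested, 1 rose and 4 fell in each day 4 group. H3c15, on chromosome 3, encodes a replicative H3 and measured 0.247 and 0.142 CPM at day 0, 1.05 and 1.29 CPM after DMSO and 1.11 and 0.998 CPM after 4-PBA. All day 4 libraries were above day 0, by a log2 fold change of 2.63 with DMSO (SE 0.383, adjusted p = 2.13e-07, edgeR) and 2.48 with 4-PBA (SE 0.389, adjusted p = 8.74e-07). Of its 50-base stretches, 63.5% occur in another annotated gene. H3c14 of the same chromosome had no counts in any library. Since 100% of its stretches are shared, that may reflect how reads were assigned.

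H3c3 measured 0.7 and 0.413 CPM at day 0, 0.158 and 0.283 CPM after DMSO and 0.209 and 0.225 CPM after 4-PBA. Its log2 fold change was -1.29 with DMSO (SE 0.518, adjusted p = 0.0287, edgeR) and -1.32 with 4-PBA (SE 0.527, adjusted p = 0.0272). Without day 0 replicate 1 neither was called (-0.89, adjusted p = 0.255, and -0.92, adjusted p = 0.243, by edgeR), nor with DESeq2 (adjusted p = 0.0984 and 0.0947). The DMSO call was also lost without DMSO replicate 1 (adjusted p = 0.193, edgeR), and the 4-PBA call without 4-PBA replicate 1 (adjusted p = 0.101) or replicate 2 (adjusted p = 0.0773). H3c4 measured 0.514 and 0.413 CPM at day 0, 0.602 and 0.485 CPM after DMSO and 0.322 and 0.386 CPM after 4-PBA, and was called in neither comparison (adjusted p = 0.639 and 0.474, edgeR).

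H3c6 and H3c1 fell to a few counts, and both passed the low-count filter through their day 0 libraries only. H3c6 had 14 and 18 counts at day 0, 2 and 4 after DMSO and 4 and 2 after 4-PBA, a log2 fold change of -2.58 (SE 0.802, adjusted p = 0.00506, edgeR) and -2.44 (SE 0.805, adjusted p = 0.0082). The DMSO call was lost without DMSO replicate 1 (adjusted p = 0.0837, edgeR), and the 4-PBA call without day 0 replicate 1 (adjusted p = 0.0587), without 4-PBA replicate 2 (adjusted p = 0.113) and with DESeq2 (adjusted p = 0.0598). H3c1 had 10 and 13 counts at day 0, 4 and 0 after DMSO and 2 and 2 after 4-PBA. Its log2 fold change with DMSO was -2.64 (SE 0.97, adjusted p = 0.0169, edgeR), and its summed count with 4-PBA was 6.01-fold lower than at day 0 (95% counting interval 2.05 to 23.9, or 1.4 to 57.7 with counts halved; adjusted p = 0.0231, edgeR). Without DMSO replicate 2 the DMSO value was -1.59 (adjusted p = 0.279, edgeR). Both calls were lost without either day 0 library, the 4-PBA call without either 4-PBA library (adjusted p up to 0.132), and both with DESeq2 (adjusted p = 0.116 and 0.132).

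H4 genes, nearly all of which encode the same protein, fell or were not called with DMSO. Of 9 tested, 0 rose and 5 fell with DMSO, and 1 rose and 3 fell with 4-PBA; at an unadjusted p below 0.05 the count with DMSO was also 5. H4c2 measured 0.741 and 0.669 CPM at day 0, 0.0792 and 0.108 CPM after DMSO and 0.242 and 0.225 CPM after 4-PBA. The 3 groups did not overlap. It fell by 2.87 on the log2 scale with DMSO (SE 0.553, adjusted p = 2.41e-05, edgeR) and by 1.58 with 4-PBA (SE 0.493, adjusted p = 0.00529). Its stem-loop, printed above, has the GGTCC form found in 2 genes; the other is H4c11. The annotated 4930558J22Rik overlaps H4c2 on the other strand.

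H4c9, the most counted H4 gene, measured 2.51 and 2.65 CPM at day 0, 1.77 and 1.78 CPM after DMSO and 2.51 and 2.72 CPM after 4-PBA. DMSO was below the other groups, while 4-PBA and day 0 overlapped. The log2 fold change was -0.54 with DMSO (SE 0.189, adjusted p = 0.0121, edgeR), lost without day 0 replicate 2 (adjusted p = 0.0761) and with DESeq2 (adjusted p = 0.058). With 4-PBA it was 0.018 (SE 0.183, adjusted p = 0.939, edgeR), and its sign changed with the scaling and with the library left out.

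H4c14 of chromosome 3 measured 0.206 and 0.385 CPM at day 0, 0.317 and 0.782 CPM after DMSO and 0.709 and 0.548 CPM after 4-PBA. Day 0 and DMSO overlapped, and with 4-PBA the log2 fold change was 1.04 (SE 0.461, adjusted p = 0.0478, edgeR). That call was lost without day 0 replicate 1 (0.70, adjusted p = 0.258, edgeR), without either 4-PBA library (adjusted p = 0.209 and 0.053), with no TMM scaling (adjusted p = 0.0532), with limma-voom (adjusted p = 0.0699) and with DESeq2 (adjusted p = 0.155).

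H4c11 measured 0.370 and 0.556 CPM at day 0, 0.0634 and 0.162 CPM after DMSO and 0.0483 and 0.193 CPM after 4-PBA. It fell by 2.01 on the log2 scale with DMSO (SE 0.63, adjusted p = 0.00558, edgeR) and by 1.94 with 4-PBA (SE 0.637, adjusted p = 0.00798). Both calls were lost without day 0 replicate 2, the DMSO call without DMSO replicate 1 (adjusted p up to 0.109, edgeR), and the 4-PBA call without 4-PBA replicate 1 (-1.27, adjusted p = 0.142) and with DESeq2 (adjusted p = 0.055). H4c6 had 8 and 4 counts at day 0, 0 and 1 after DMSO and 2 and 10 after 4-PBA. The summed count was 13.9-fold lower with DMSO than at day 0, with a 95% counting interval of 2.05 to 593 (adjusted p = 0.0264, edgeR). With counts halved and rounded up it was 6.93-fold lower, with an interval of 0.841 to 319 that includes no difference. This call was lost without day 0 replicate 1 (adjusted p = 0.236, edgeR), without either DMSO library (adjusted p = 0.167 and 0.0613) and with DESeq2 (adjusted p = 0.093).

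Summed over all classes, the members' total with DMSO overlapped day 0, and with 4-PBA it was above both. All 62 rows summed to 37.3 and 39.6 CPM at day 0, 35.8 and 39.2 CPM after DMSO and 44.1 and 42.8 CPM after 4-PBA. The ratio of 4-PBA to day 0 was 1.13. Without H2bc4 the sums were 25.3 and 27.5 CPM at day 0, 16.6 and 18.5 CPM after DMSO and 20.9 and 20.8 CPM after 4-PBA, so that day 0 was highest. The ratio of DMSO to day 0 was 0.976 with H2bc4 and 0.665 without it, and no test was run on these sums.

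By class, H2A summed to 11.9 and 12.2 CPM at day 0, 7.13 and 7.12 CPM after DMSO and 9.08 and 9.32 CPM after 4-PBA. Without H2ac24 the mean H2A sum was 4.82 CPM at day 0, 5.40 CPM with DMSO and 6.51 CPM with 4-PBA, so the direction of the class rested on that gene. The H2B sums were 17.8 and 19.2 CPM at day 0, 23.7 and 26.2 CPM after DMSO and 28.5 and 26.8 CPM after 4-PBA. H2B without H2bc4 went the other way, from a mean of 6.47 CPM at day 0 to 4.99 CPM with DMSO and 5.05 CPM with 4-PBA. The H3 sums were 2.61 and 2.38 CPM at day 0 and 2.06 to 2.28 CPM at day 4. The H4 sums were 5.02 and 5.81 CPM at day 0, 2.87 and 3.61 CPM after DMSO and 4.38 and 4.54 CPM after 4-PBA.

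**Figure D3:**
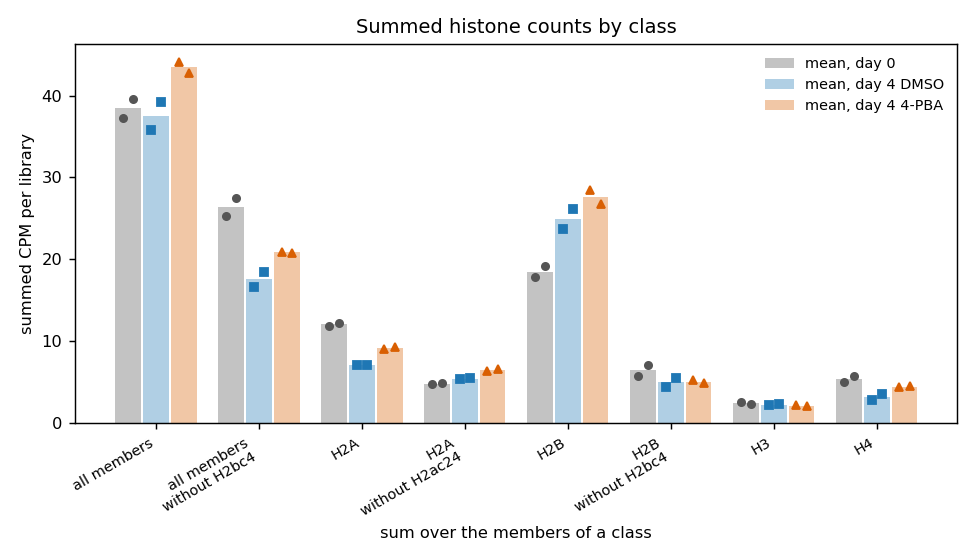
Summed CPM of the histone genes (y axis, from 0) by class and with the leading gene left out (x axis); bars are means of 2 libraries and points are the libraries. The H2B bars rise from day 0 to day 4 with H2bc4 and fall without it, and the H2A bars fall with H2ac24 and rise without it.

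Where a gene had a length, levels were also set side by side as CPM per kilobase of GENCODE M21 exons. At day 0 the mean level was 15.0 for H2ac24, 10.4 for H2bc4, 3.55 for H4c9 and 1.78 for H4c2. At day 4 with DMSO it was 17.3 for H2bc4, 3.58 for H2ac24, 2.44 for H4c9 and 0.236 for H4c2, and with 4-PBA it was 19.6, 5.60, 3.60 and 0.588. H2ac24 thus stood above H2bc4 per length at day 0 and below it at day 4. This order depends on how shared reads were assigned, since 93.1% of the 50-base stretches of H2ac24 and 30.1% of those of H2bc4 occur elsewhere. The lengths also come from another build than the counts.

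The position and the annotated transcript form were not used to choose the genes, and these groupings were made after the values had been seen. Of 27 tested members on chromosome 13, 2 rose and 15 fell with DMSO and 2 rose and 14 fell with 4-PBA, with a median log2 fold change of -1.30 with DMSO. Of 7 on chromosome 3, 3 rose and 0 fell with DMSO and 4 rose and 0 fell with 4-PBA. Their median log2 fold change with DMSO was 2.10, and at an unadjusted p below 0.05 by edgeR the counts were 4 and 4. Over all tested genes, 33.8% were called higher and 32.6% lower with DMSO, and 33.2% and 32.4% with 4-PBA. A difference between the chromosomes was not tested. The 3 tested members without a matched position, 1 higher and 1 lower in each day 4 group, are in neither set. By DMSO calls, the rises on chromosome 3 were H2ac18, H2ac19 and H3c15. The near-identical H2ac18 and H2ac19 may not be separate observations. H2ac18, H2ac19 and H2bc18 passed the low-count filter through day 4 libraries only, so they could hardly enter as lower there. H3c13 of chromosome 3, with 4 and 9 counts at day 0 and 0 and 2 after DMSO, was removed by the filter. The absence of falls on chromosome 3 and its median thus depend partly on the filter. Of the 50-base stretches of H3c15, 63.5% are shared with other genes, so its counts also depend on how reads were assigned. Of 15 members with a long annotated transcript (spliced, over 100 bases past the stem-loop, or of 1000 bases or more), 2 rose and 6 fell with DMSO. Of 19 with short transcripts only, 3 rose and 9 fell. Among the 30 tested members with a promoter window, 1 rose and 3 fell of 8 with the octamer, and 3 rose and 11 fell of 22 without it.

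Members outside the test had little to show at this depth. The 17 rows with 10 or more counts that were not tested had 12 to 32 summed counts: H3c13, H4c16, H2bc13, H3c10, H2bc14, H2ac15, H3c11, H2ac22, H2ac12, H2ac10, H3c7, H2bc7, H4c3, H2bc3, H2ac4, H4c1 and H2ac1. With every gene of 10 or more summed counts tested, H3c10 (adjusted p = 0.00381, edgeR) and H4c1 (adjusted p = 0.0461) were lower with DMSO than at day 0, named here after their values were seen. The other 8 rows, H2ac21, H3c14, H2bc26-ps, H2bc15, H2bc23, H2ac23, H4c17 and H3c2, had fewer than 10 counts.

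The genes that make, process and load histones were compared next, from lists of the pathway. Beside the count of each list, 33.8% of all tested genes were called higher and 32.6% lower with DMSO. The S-phase list, of replication genes such as Pcna (the sliding clamp), Mcm7 (a subunit of the replicative helicase) and Rrm2 (ribonucleotide reductase), had 20 of 20 genes lower with DMSO than at day 0, with a median log2 fold change of -1.90. Pcna measured 266 and 269 CPM at day 0, 92.8 and 86.7 CPM after DMSO and 103 and 101 CPM after 4-PBA. Of the 37 core histone members, 16 fell and 6 rose in the same comparison. Of 21 genes of histone mRNA processing and transcription, 1 rose and 17 fell with DMSO. Slbp, the stem-loop binding protein, measured 73.1 and 79.1 CPM at day 0, 32.2 and 28.8 CPM after DMSO and 31.0 and 29.1 CPM after 4-PBA, and fell by 1.32 on the log2 scale with DMSO (SE 0.0555, adjusted p = 5.06e-20, edgeR). Lsm11, a protein of the U7 particle that cuts histone pre-mRNA, fell by 0.91 (adjusted p = 6.34e-13, edgeR), and Eri1, an exonuclease that trims the stem-loop end, fell by 0.90 (adjusted p = 3.85e-18). The 1 rise, named after its value was seen, was Tut7, a uridylyl transferase, at 0.61 (adjusted p = 3.38e-16, edgeR).

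Of 19 histone chaperones, 2 rose and 16 fell with DMSO. Chaf1a, a subunit of the assembly factor that follows the replication fork, measured 124 CPM in both day 0 libraries, 33.7 and 32.7 CPM after DMSO and 36.6 and 37.8 CPM after 4-PBA. Nasp, a chaperone of H3 and H4, fell by 1.53 on the log2 scale (adjusted p = 7.41e-27, edgeR). Of 9 core histone genes expressed outside S phase or as variants, 2 rose and 7 fell with DMSO. H2az1, which encodes the variant H2A.Z, measured 470 and 468 CPM at day 0, 185 and 181 CPM after DMSO and 200 and 203 CPM after 4-PBA. No length was applied to these levels. Of 6 tested linker histone genes, 1 rose and 2 fell with DMSO: H1f2 measured 39.3 and 36.2 CPM at day 0, 69.4 and 78.0 CPM after DMSO and 80.6 and 79.0 CPM after 4-PBA, a log2 fold change of 0.97 (SE 0.0528, adjusted p = 1.23e-15, edgeR). H1f0 and H1f10, linker histones made outside S phase, fell by 0.27 and 0.68 (adjusted p = 1.15e-08 and 6.76e-11, edgeR).

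**Figure D4:**
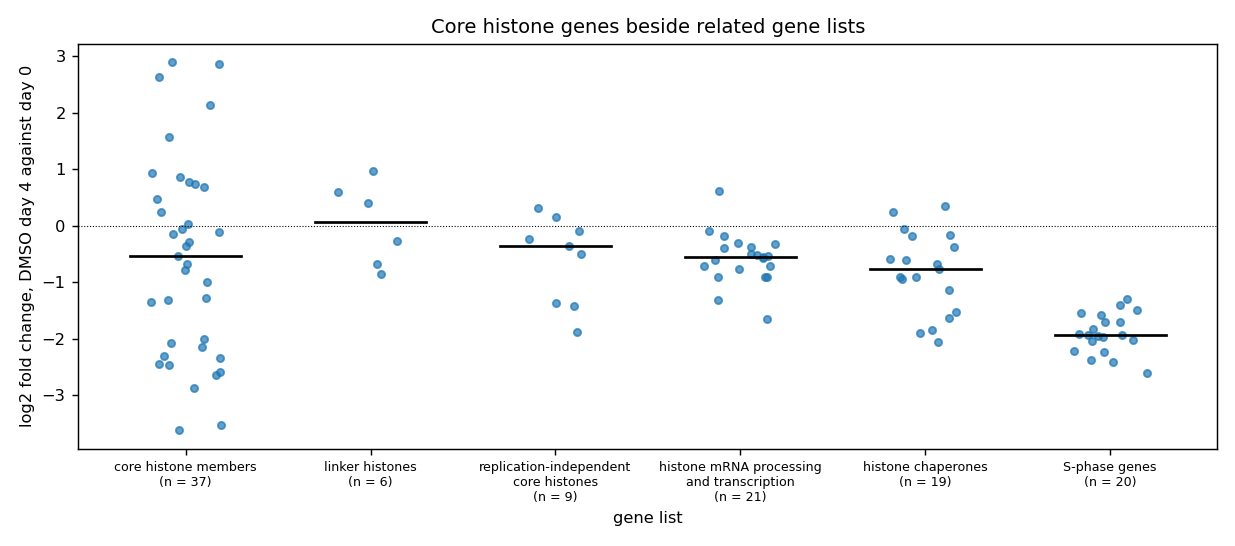
Log2 fold change of DMSO day 4 against day 0 (y axis) for each tested gene of the core histone members and of 5 related lists (x axis, n in each label); horizontal bars are medians and sideways scatter has no meaning. The 20 S-phase genes all lie below 0, and the 37 core histone members lie on both sides.

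The last question was whether 4-PBA changed histone genes relative to its vehicle at day 4. By the main test 1 of 37 members was called, H2ac24, and it was higher with 4-PBA, beside 2.13% of all tested genes called higher and 2.78% called lower. By this count the members stood near the background. At an unadjusted p below 0.05 there were 6 members, or 16.2%, against 16.7% of all tested genes, while DESeq2 called 1 and limma-voom called 0. The log2 fold change was above 0 in 23 members and below 0 in 14, with a median of 0.18 against 0.0021 over all tested genes, and the median SE of a member was 0.65, so differences of that size were not detectable for most of them.

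The 4-PBA libraries of H2ac24, at 2.71 and 2.69 CPM, were above the DMSO libraries at 1.77 and 1.67 CPM. The log2 fold change was 0.65 (SE 0.167, adjusted p = 0.0156, edgeR), or 1.57-fold, and both 4-PBA libraries showed it. The call was lost without DMSO replicate 2 (0.60, adjusted p = 0.0796, edgeR), without 4-PBA replicate 1 (adjusted p = 0.0961) or replicate 2 (adjusted p = 0.0918), and with limma-voom (adjusted p = 0.0565). It is thus close to the threshold with 2 libraries a group.

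Other well counted members gave smaller or less certain differences. H4c9 was at 0.56 (SE 0.187, adjusted p = 0.0806, edgeR), with 4-PBA above DMSO in both libraries. H2bc4 was at 0.18 (SE 0.0712, adjusted p = 0.157, edgeR), which is small next to its change from day 0. H2ac25 was at 0.27 (SE 0.168, adjusted p = 0.45), H2bc21 at 0.26 (SE 0.251, adjusted p = 0.692) and H2bc6 at -0.44 (SE 0.28, adjusted p = 0.467, edgeR). H4c2 was at 1.29 (SE 0.613, adjusted p = 0.278, edgeR), with both 4-PBA libraries above both DMSO libraries. H3c15 was at -0.15 (SE 0.298, adjusted p = 0.872, edgeR).

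**Figure D5:**
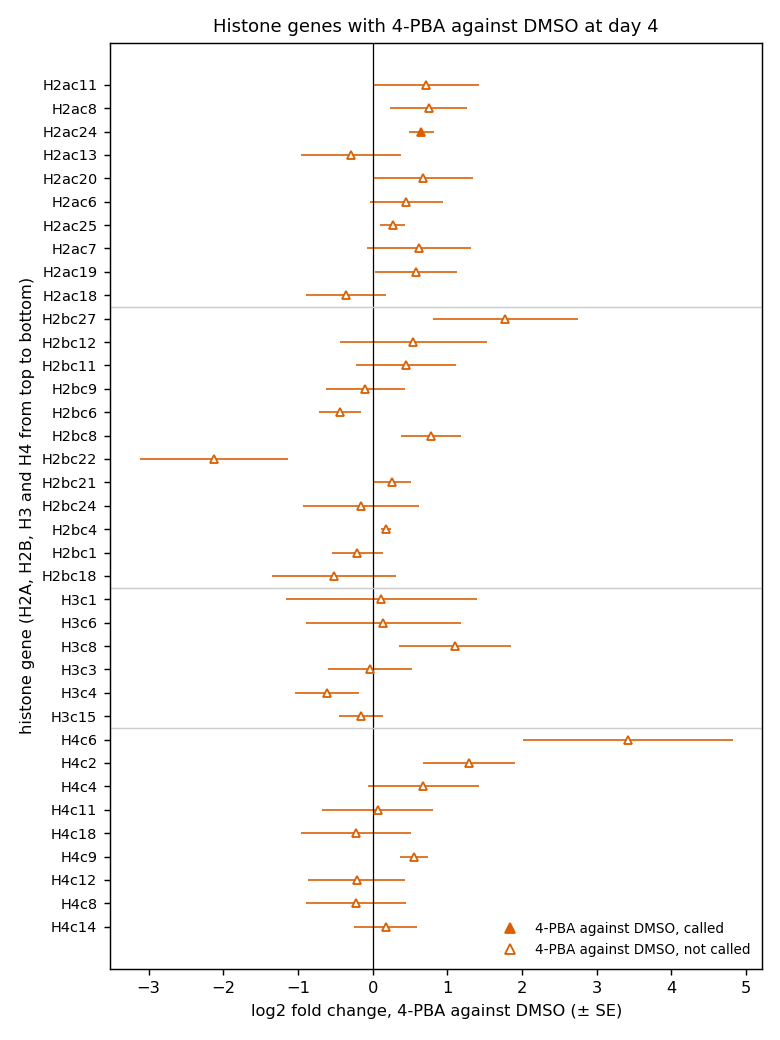
Log2 fold change of 4-PBA against DMSO at day 4 (x axis, ± SE) for the 37 tested histone genes (y axis, in the order of the plot of day 4 against day 0); the filled point is called. H2ac24 at 0.65 is the only filled point, and the widest bars belong to genes with few counts such as H4c6.

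In the related lists, 11 of 20 S-phase genes were higher with 4-PBA than with DMSO and none lower, with a median log2 fold change of 0.20. For this and the lists below, the shares of all tested genes were 2.13% called higher and 2.78% lower. Mcm7 measured 56.5 and 53.6 CPM after DMSO and 65.8 and 67.5 CPM after 4-PBA, a log2 fold change of 0.28 (SE 0.0398, adjusted p = 1.92e-05, edgeR). Without 4-PBA replicate 2 the count was 3 of 20, and with other libraries left out it reached 18. Of the 9 core histone genes expressed outside S phase or as variants, 5 were higher. Among them were H2az1 at 0.14 (adjusted p = 0.0028, edgeR) and H2az2 at 0.21 (adjusted p = 0.0035). This count did not hold without 4-PBA replicate 2. Of 19 chaperones 2 were higher, Anp32e at 0.14 (adjusted p = 0.0133, edgeR) and Chaf1a at 0.16 (adjusted p = 0.0307), and 0 without 4-PBA replicate 2. The linker genes H1f0, at 0.25 (adjusted p = 1.19e-05, edgeR), and H1f10, at 0.38 (adjusted p = 4.2e-04), were higher. Of the 21 processing genes 0 were called by edgeR, with 2 at an unadjusted p below 0.05, and Slbp was at -0.018 (SE 0.0581, adjusted p = 0.929). The non-polyadenylated Rn7sk measured 5.04 and 5.92 CPM after DMSO and 6.17 and 4.38 CPM after 4-PBA, with overlapping libraries.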

How the data were processed

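The deposited table holds raw counts per gene symbol, not normalised, with 1 column per library, per the labels. RNA was DNase-treated and made into directional libraries, per the labels' protocols. GRCm39 is named in the submitters' processing notes; aligner, counter, annotation, strand setting and poly(A) selection are not given in the sources used here. Members and gene lists were chosen with earlier results of these data known.

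Counts were analysed with edgeR 4.0.16 (R 4.3.3): filterByExpr, TMM scaling, 1 mean per group over 6 libraries, robust glmQLFit (3 residual degrees of freedom, common biological coefficient of variation 3.74%) and Benjamini-Hochberg adjustment over all tested genes. SE is the log2 fold change divided by the square root of F. Count intervals cover counting error only and take counts as independent, which fails if both mates were counted. Named were the 3 most counted tested members per class, the 5 largest called rises and falls per comparison without overlap, every member called between treatments and, per list, the smallest adjusted p. Other genes are named as examples after their values were seen. DESeq2 1.42.0 and limma 3.58.1 served as alternatives. Replicate numbers were not used to pair the libraries in the main fit. Transcript properties came from GENCODE M21 and promoters from RefSeq (GRCm38.p6), another build than that of the counts. The fit was tested on simulated counts.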

Additional observations from a re-analysis of the deposited data

How the results depend on the processing

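The number of members called was 15 to 24 for DMSO against day 0 over all alternatives, including 17 to 24 with 1 library left out. The filter on low counts was applied anew in each such fit, so members outside the 37 can enter; of the 22 calls, 15 to 22 held. For 4-PBA against day 0 it was 9 with DESeq2's Wald test and 11 to 20 with 1 library left out. For 4-PBA against DMSO it was 0 with limma-voom, 0 when a 2-fold change was required and 0 to 1 with 1 library left out. With the replicate number as a block the counts were 22, 19 and 1. Replicate differences correlated at -0.0279, -0.00306 and -0.0116 between groups. Over all tested genes no pairing was seen, but an effect on few genes would not show in these values. With all counts halved, an alternative chosen after seeing the data, the counts were 17, 16 and 1. Scaling by DESeq2 size factors left the counts at 22, 22 and 1, and library size alone gave 22, 21 and 1. Signs turned for values that were not called. H4c9 with 4-PBA against day 0 was -0.00031 with library size alone and -0.04 to 0.079 with a library left out. H3c3 between treatments was 0.013 with limma-voom and -0.38 to 0.45 with a library left out. Leaving out a library gave H2bc21 a range of -0.46 to 0.16 (DMSO against day 0), -0.062 to 0.41 (4-PBA against day 0) and -0.0049 to 0.6 (between treatments). Between treatments the ranges were -0.32 to 0.98 for H4c14, -0.098 to 0.063 for Slbp, -0.81 to 0.093 for H2bc6, -0.3 to 0.013 for H3c15 and -0.32 to 0.17 for Rn7sk. Scarna2 with DMSO against day 0 ran from -1.67 to 0.32. Leaving out a library leaves 1 in its group, which is then assumed to vary like the others; the cause of other changes was not tested. Few counts per member and 2 libraries a group both limit the precision.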
